A study of Mus musculus with 9 samples.

Results

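Caveolae are small flask-shaped pits of the plasma membrane, and 5 genes of their coat and neck, Cav1, Cav2, Ehd2, Pacsin2 and Pacsin3, were followed in mouse brain tumor stem cells with and without a CRISPR knockout (KO) of Gpd1. Gpd1 encodes a cytosolic glycerol-3-phosphate dehydrogenase that links glycolysis to lipid synthesis. The genes were picked by symbol as known caveola genes out of the 21899 genes of the expression table, and all 5 had a row. They were chosen with the KO and control values of these libraries in view, so their differences between KO and control are given as a description. Where the fit over all genes calls a member in these contrasts, the call only repeats the choice and is no test of it. RNA with poly(A) tails was sequenced in 9 libraries from 3 groups, with 3 libraries in each: control cells, cells edited with the first guide RNA (sgRNA1 KO) and cells edited with the second (sgRNA2 KO).

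The cells are labelled as brain tissue and as brain tumor stem cells, with no strain, age or sex. KO cells were transfected with a lentiCRISPRv2 plasmid, which carries Cas9, a guide and puromycin resistance, and were selected with puromycin. KO cultures were then grown from picked colonies that each came from a single cell, and loss of the protein was checked by western blot and the edit by DNA sequencing. For the controls no plasmid, puromycin or colony picking is mentioned, so effects of clonal growth, of the plasmid and of the knockout cannot be told apart. The titles of the KO libraries end in non-serial numbers, which may name different picked colonies, but their meaning is not stated. If they do, the KO spread holds differences between colonies that the control spread does not, and limma's main fit pools both. No label states that the libraries of a group are separate cultures, so a p-value here measures the spread between these libraries only. Values are deposited read counts, scaled to make the libraries comparable and rounded, and are called normalised counts.

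Caveolins insert into the inner face of the membrane and form, with cytoplasmic cavins, the coat of the pit. EHD2, an ATPase, sits as a ring at the neck and holds the pit at the surface, and the pacsins (syndapins) are F-BAR proteins that bend the membrane at the neck. Caveolae buffer membrane tension, store lipids and are abundant in endothelial, muscle and fat cells.

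The 2 guides are printed with the adjoining protospacer motif (PAM) in capitals, because they define the groups compared.
sgRNA1: aaagtctgcattgtcggctcTGG
sgRNA2: tgcattgctacccacgatctTGG
The sgRNA1 site lies in coding sequence of exon 1 of the 8 exons of Gpd1 (mm10 chr15:99717620-99717639, plus strand). The sgRNA2 site lies in coding sequence of exon 2 (chr15:99718169-99718188, minus strand). Gpd1 had 25106, 26566 and 25836 normalised counts in control replicates 1 to 3. It had 3299, 1347 and 21351 in sgRNA1 KO replicates 1 to 3, and 10812, 10812 and 6945 in sgRNA2 KO replicates 1 to 3. All 6 KO libraries were below the controls, but sgRNA1 KO replicate 3 kept 82.6% of the control mean. Whether that library lost Gpd1 cannot be read from its RNA level, and it is counted as KO below because the labels say so. The log2 fold change was -1.99 (SE 0.72), which did not pass limma's test (adjusted p = 0.0516; 0.00375 to 0.137 over 18 alternatives, and 0.0183 without that library). RNA levels do not measure the edit itself, and reads of the antisense gene Gm16537, which overlaps Gpd1 exons, cannot be told apart because strand use in counting is not given.

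The 9 libraries summed to between 39781901 and 42975283 normalised counts. The libraries sgRNA1 KO replicate 3 and sgRNA2 KO replicate 1 lay nearest the controls, with correlations across genes of 0.962 to 0.972 to the controls against 0.909 to 0.945 for the other 4 KO libraries. The limma counts of members and of gene lists in KO against control are therefore also given without them below. Member counts for each guide and counts of cell type markers are not. All 10 neural stem and glioma markers checked were in the table, from Prom1 at 7 to 15 in the controls to Fabp7 at 89658 to 108412, with Prom1 close to the detection limit. In KO, Sox2, Egfr and Pdgfra rose (log2 fold changes 0.94, 0.83 and 2.20) and Nes fell (-1.36). These 3 higher and 1 lower of 10 tested are near the share of all genes tested that limma called, 39.3%. The marker set was therefore not constant between the groups, but no less so than genes at large. The calls of Egfr and Pdgfra were lost without control replicate 2 or 3, and that of Egfr also without control replicate 1 (adjusted p up to 0.0755 and 0.0638).

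Cav1 was close to 0 in the KO libraries, Cav2 and Ehd2 were at part of their control level, Pacsin2 overlapped the controls and Pacsin3 was higher. The mean level in KO was 3.74% of the control mean for Cav1, 26.8% for Cav2, 43.2% for Ehd2, 89.8% for Pacsin2 and 178% for Pacsin3. By limma, 3 members were lower and 1 higher at an adjusted p under 0.05 in KO against control, where 39.3% of all 15827 genes tested passed, 20.2% lower and 19.1% higher. In 3 members all 6 KO libraries lay below all 3 controls, as they did for 23.8% of genes tested, and in 1 all lay above, as for 21.1%. All 5 members passed the filter on low values, and these counts support nothing further, since the members were selected on this contrast. Without the KO libraries nearest the controls the counts were again 3 lower and 1 higher. Without sgRNA1 KO replicate 3 alone, whose Gpd1 RNA was near the controls, the log2 fold changes were -4.71 for Cav1, -2.05 for Cav2, -1.37 for Ehd2, -0.15 for Pacsin2 and 0.81 for Pacsin3.

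**Figure D1:**
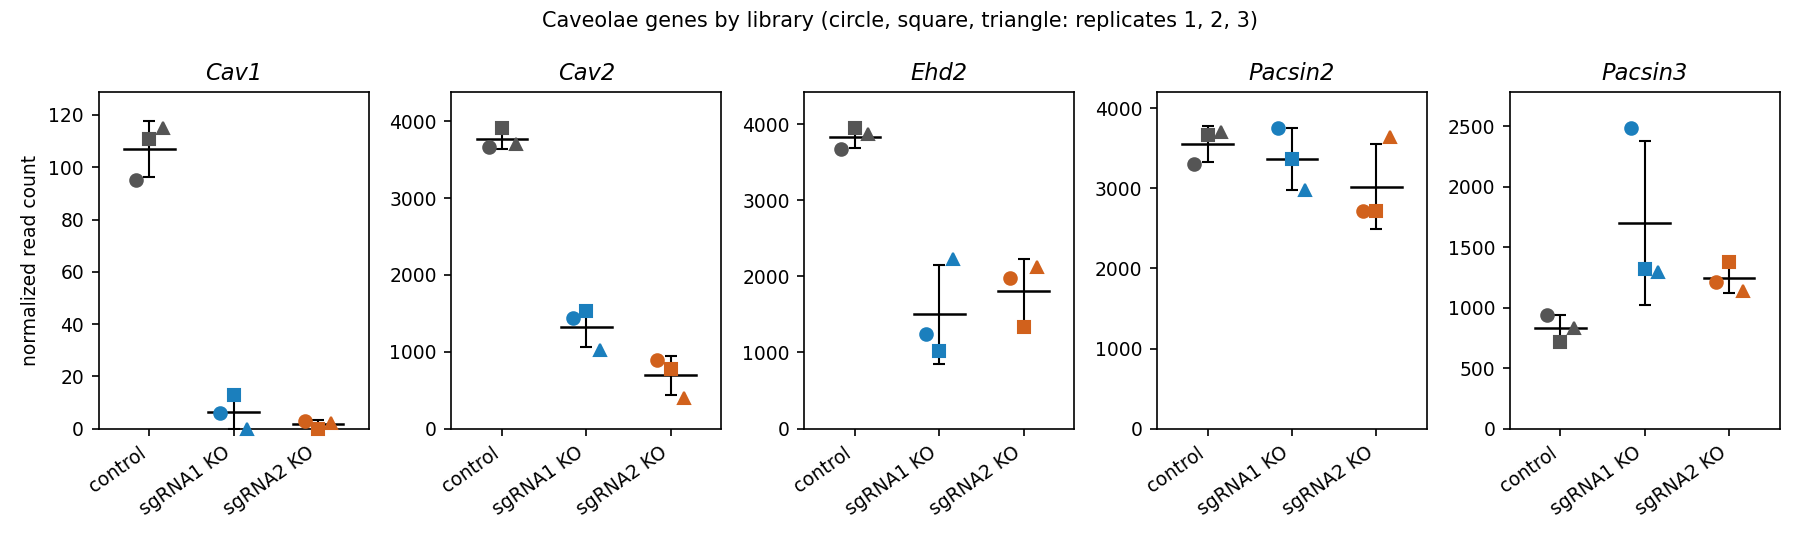
Normalised counts (vertical axes, each from 0) of the 5 genes in each of the 9 libraries, grouped as control, sgRNA1 KO and sgRNA2 KO. Symbols mark replicates 1 to 3 and bars the group mean with its SD. Cav1 stays at 0 to 13 in the 6 KO libraries against 95 to 115 in the controls, and Pacsin2 overlaps between groups.

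Cav1, the main caveolin outside muscle, without which caveolae do not form in non-muscle cells, lies on chromosome 6 (ENSMUSG00000007655, mm10 chr6:17306335-17341452, plus strand). Its normalised counts were 95, 111 and 115 in control replicates 1 to 3. They were 6, 13 and 0 in sgRNA1 KO replicates 1 to 3, and 3, 0 and 2 in sgRNA2 KO replicates 1 to 3. Every KO library was far below every control, and 2 of the 6 had no read, which allows up to 3 counts in each. The mean went from 107 ± 10.6 (SD, n = 3) to 4 ± 4.94 (SD, n = 6), a 26.8-fold lower level, and the log2 fold change was -5.05 (SE 0.79). The log2 value depends on the 1 count added before the logarithm, and was -3.79 with 5 added and -5.48 with 0.5 added. Cav1 was already a weak transcript in the controls, so its counting error in KO is large.

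Cav2, which forms hetero-oligomers with caveolin-1 and needs it to leave the Golgi, is the neighbouring gene (ENSMUSG00000000058, mm10 chr6:17281185-17289115, plus strand). It had 3671, 3912 and 3707 normalised counts in control replicates 1 to 3. It had 1436, 1524 and 1021 in sgRNA1 KO replicates 1 to 3 and 894, 781 and 402 in sgRNA2 KO replicates 1 to 3. The KO libraries did not overlap the controls, and the sgRNA2 libraries were all below the sgRNA1 libraries. The mean went from 3763 ± 130.0 (SD, n = 3) to 1010 ± 420 (SD, n = 6), 3.73-fold lower, with a log2 fold change of -2.02 (SE 0.36). Cav2 remained well detected in every KO library, whereas Cav1 did not.

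The 250 bases before the RefSeq start sites of these neighbours (GRCm38.p6) are printed because both genes were lower in every KO library, with motif matches in capitals.
Cav1 (chr6:17306085-17306334, plus strand): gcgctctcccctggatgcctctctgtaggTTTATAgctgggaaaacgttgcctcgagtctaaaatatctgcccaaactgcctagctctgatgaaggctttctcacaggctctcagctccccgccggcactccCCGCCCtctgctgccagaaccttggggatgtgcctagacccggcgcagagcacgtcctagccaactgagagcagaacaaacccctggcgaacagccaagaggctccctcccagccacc
Cav2 (chr6:17280935-17281184, plus strand): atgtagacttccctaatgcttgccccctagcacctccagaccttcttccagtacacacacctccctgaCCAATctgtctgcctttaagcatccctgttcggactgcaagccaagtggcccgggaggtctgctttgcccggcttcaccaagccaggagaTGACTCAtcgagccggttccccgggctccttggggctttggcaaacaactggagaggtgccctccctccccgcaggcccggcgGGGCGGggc
The motifs searched on both strands were the GC box GGGCGG, the AP-1 motif TGANTCA, the TEAD motif GGAATG, the TATA box TATAAA and the CCAAT box. Cav1 held a GC box 118 bases before its start and the letters of a TATA box, reversed, at 221 bases. Cav2 held a GC box at 9 bases, the AP-1 letters TGACTCA at 92 and a CCAAT box at 182. The only motif these windows shared was the GC box, which 32.7% of the 32851 RefSeq promoter windows hold. A GC box also lay before a start of Ehd2, of Pacsin2 and of Pacsin3, and the AP-1 letters before another Pacsin2 start. The AP-1 letters occur in 6.75%, CCAAT in 33.8%, TATAAA in 12.4% and GGAATG in 12.6%. A second Cav1 start held none of the 5 motifs. A match is a description of the letters and not a binding site.

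Ehd2, the neck ATPase, lies on chromosome 7 (ENSMUSG00000074364, mm10 chr7:15946958-15967567, minus strand). It had 3674, 3949 and 3872 normalised counts in control replicates 1 to 3. It had 1246, 1019 and 2233 in sgRNA1 KO replicates 1 to 3 and 1979, 1334 and 2119 in sgRNA2 KO replicates 1 to 3. All KO libraries were below all controls, and the highest KO value was in sgRNA1 KO replicate 3. The mean went from 3832 ± 142 (SD, n = 3) to 1655 ± 516 (SD, n = 6), 2.32-fold lower, with a log2 fold change of -1.27 (SE 0.25).

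Pacsin2, the pacsin found at caveolae in most tissues, lies on chromosome 15 (ENSMUSG00000016664, mm10 chr15:83375607-83464606, minus strand). It had 3303, 3666 and 3702 normalised counts in control replicates 1 to 3. It had 3755, 3367 and 2978 in sgRNA1 KO replicates 1 to 3 and 2717, 2717 and 3639 in sgRNA2 KO replicates 1 to 3. The groups overlapped, and the highest of the 9 values was in a KO library. The means were 3557 ± 221 (SD, n = 3) and 3196 ± 457 (SD, n = 6), and the log2 fold change was -0.17 (SE 0.13, 95% interval -0.46 to 0.13).

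Pacsin3, the muscle-enriched pacsin of caveolae, lies on chromosome 2 (ENSMUSG00000027257, mm10 chr2:91255954-91264679, plus strand). It had 938, 718 and 828 normalised counts in control replicates 1 to 3. It had 2487, 1324 and 1295 in sgRNA1 KO replicates 1 to 3 and 1216, 1378 and 1142 in sgRNA2 KO replicates 1 to 3. Every KO value was above every control value, with sgRNA1 KO replicate 1 far above the rest. The mean went from 828 ± 110 (SD, n = 3) to 1474 ± 503 (SD, n = 6), with a log2 fold change of 0.78 (SE 0.23), and 0.62 (SE 0.13) without that library. With any 1 library left out the log2 fold change stayed between 0.62 and 0.88, but the call was lost without control replicate 2 or 3. Exons of Pacsin3 overlap Gm17281 on the opposite strand, and reads of this pair cannot be told apart.

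Levels of different genes were compared per kilobase of annotated exon. In the controls Cav2 stood at 1128 ± 39.0 normalised counts per kb (SD, n = 3), Ehd2 at 749 ± 27.7, Pacsin2 at 725 ± 45, Pacsin3 at 191 ± 25.4 and Cav1 at 31.1 ± 3.07. Ehd2 and Pacsin2 were neighbours in this order that did not differ beyond their spread, with a ratio of 1.03 (1.0 to 1.07 within the control libraries). Cav1 stood at 0.0275 of the Cav2 level per kb in the controls. In KO the order per kb was Pacsin2 at 651 ± 93.1 (SD, n = 6), Pacsin3 at 341 ± 116, Ehd2 at 323 ± 101, Cav2 at 303 ± 126 and Cav1 at 1.16 ± 1.43. Pacsin3, Ehd2 and Cav2 lay within each other's spread there, so Cav2 led the 5 genes in the controls and Pacsin2 in KO.

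**Figure D2:**
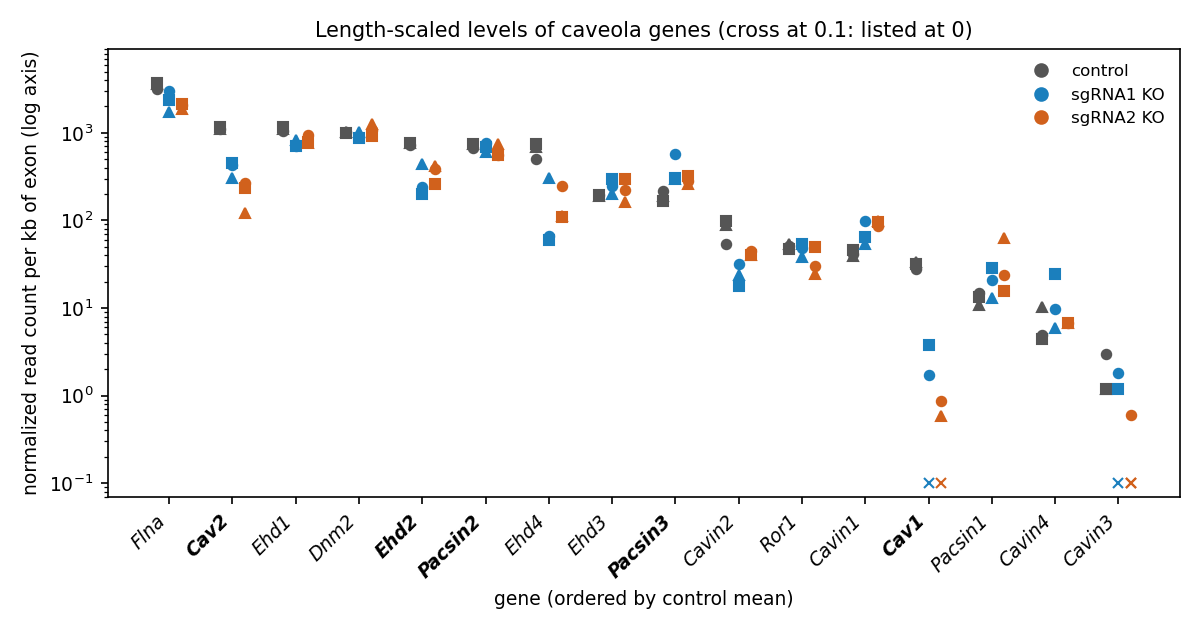
Normalised counts per kb of exon on a log axis (vertical) for the 5 chosen genes (bold) and 11 other caveola genes, ordered by control mean (horizontal), with 1 point per library (circle, square and triangle for replicates 1 to 3) coloured by group and crosses for values of 0. Of the 5 genes, Cav2 is highest in the controls (mean 1128 per kb), Pacsin2 is highest in KO (mean 651) and Cav1 is lowest in both.

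Against the same 3 controls, the guides gave these values side by side. For sgRNA1 the log2 fold changes were -4.55 for Cav1, -1.52 for Cav2, -1.44 for Ehd2, -0.08 for Pacsin2 and 0.98 for Pacsin3. For sgRNA2 they were -5.56, -2.52, -1.11, -0.25 and 0.59 in the same order. With sgRNA1, 3 members were called lower and 1 higher, where 36.0% of genes were called. With sgRNA2, 3 were called lower and 0 higher, with Pacsin2 and Pacsin3 not called, where 22.1% of genes were called. These counts too only describe, since the contrasts share the controls that the choice used. With sgRNA2 and any 1 library left out, the log2 fold change of Ehd2 ran from -1.24 to -0.90 and that of Pacsin3 from 0.49 to 0.69. The call of Ehd2 with sgRNA2 was lost without any 1 control or without sgRNA2 KO replicate 2. Pacsin3 with sgRNA2 was called in 2 of 19 alternatives. With sgRNA1 the call of Pacsin3 was lost without control replicate 2 or 3.

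The KO groups were tested against each other, a contrast that leaves out the controls. The KO values were in view when the members were chosen, so the members' p-values here are not independent of that choice. Limma called 0% of the genes tested in this contrast, with 474 (2.99%) at an unadjusted p under 0.05. Cav2 was lower with sgRNA2, at 402 to 894 against 1021 to 1524 normalised counts with sgRNA1. The log2 difference was -1.0 (SE 0.29, 95% interval -1.65 to -0.35), which limma's test left short of the threshold after adjustment over all genes (adjusted p = 0.778, range 0.0784 to 1 over 19 alternatives). An exact two-sided permutation test gave p = 0.10, the smallest that 3 against 3 libraries allow. The other 4 members overlapped between guides. Their log2 differences were -1.01 for Cav1 (95% interval -3.05 to 1.03), 0.33 for Ehd2 (-0.32 to 0.97), -0.16 for Pacsin2 (-0.51 to 0.18) and -0.39 for Pacsin3 (-0.95 to 0.18). The adjusted p was 0.779 for Cav1 and Pacsin2 and 0.778 for Ehd2 and Pacsin3 (0.0966 to 1 over the alternatives of these 4). The intervals of Cav1, Ehd2 and Pacsin3 are wide, so the guides are not shown to act alike.

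The other genes of the caveola were tested in KO against control. This list was drawn up with earlier results of these data known and leaves the members out, so its share and median depend on that choice. Of 12 listed, 11 had a row and 10 were tested: 1 rose, 4 fell and 5 did not pass, with a median log2 fold change of -0.19 against -0.01 for all genes. The share called, 50%, is near the 39.3% of all genes, and without the KO libraries nearest the controls the counts were also 1 and 4 (48.3% of all genes called). The 1 gene that passed higher was a cavin of the coat. No EHD or pacsin paralog of the neck genes passed higher, but Pacsin1 had a log2 fold change of 0.87 (limma adjusted p = 0.133).

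Among the cavins, Cavin1 (listed under the older symbol Ptrf), the cavin needed for caveola formation, had 150, 163 and 142 normalised counts in the controls. It had 352, 230 and 195 in sgRNA1 KO replicates 1 to 3 and 310, 346 and 353 in sgRNA2 KO replicates 1 to 3. Cavin1 rose in all 6 KO libraries, opposite in sign to Cav1 (log2 fold change 0.93, SE 0.22, limma adjusted p = 0.0106). The call was lost without control replicate 3 (adjusted p = 0.0530). Cavin2 (listed as Sdpr), which shapes the coat, fell from 164, 301 and 273 in the controls to 96, 55 and 72 with sgRNA1 and 136, 122 and 122 with sgRNA2. Its groups did not overlap (log2 fold change -1.30, SE 0.33, adjusted p = 0.0127), and the call was lost without control replicate 2 (0.0700) or 3 (0.0617). Cavin3 had 2 to 5 counts in the controls and 0 to 3 in KO and was too low to test. Cavin4, the muscle cavin, had 9 to 21 in the controls and 12 to 50 in KO, with a log2 fold change of 0.50 (adjusted p = 0.406).

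Among the paralogs of the neck proteins, Ehd4, an ATPase of endosomes, had 2041, 3018 and 2790 normalised counts in the controls. It had 263, 239 and 1221 with sgRNA1 and 983, 437 and 449 with sgRNA2. Ehd4 fell (log2 fold change -2.38, SE 0.50, adjusted p = 0.00665), and its highest KO values were in the libraries nearest the controls. Ehd1, of the recycling endosome, fell from 3909, 4290 and 4102 to 2627, 2649 and 3030 with sgRNA1 and 3531, 2891 and 2873 with sgRNA2. That was a log2 fold change of -0.49 (SE 0.11, adjusted p = 0.00896), not called without control replicate 2 (0.0534). Ehd3 had 1253 to 1289 in the controls and 1072 to 1966 in KO (0.26, adjusted p = 0.292). Pacsin1, the neuronal pacsin, had 70 to 98 in the controls and 85 to 413 in KO, with a log2 fold change of 0.87 that did not pass (adjusted p = 0.133). Pacsin1 passed in 1 of 18 alternatives, with variance weights per group (0.0359). Of the EHD genes, then, Ehd1 and Ehd4 passed lower and Ehd3 did not pass.

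Flna, the filamin that ties caveolae to actin, fell from 30087, 34491 and 33842 normalised counts to 27958, 21995 and 16161 with sgRNA1 and 19379, 19830 and 17743 with sgRNA2 (log2 fold change -0.70, SE 0.16, adjusted p = 0.00917). All 6 KO values were below the controls. Dnm2, the dynamin that can pinch off membrane pits, had 5265 to 5493 in the controls and 4710 to 6706 in KO (-0.02, adjusted p = 0.919, turning to 0.09 with quantile normalisation). Ror1, a receptor reported to hold caveolins and Cavin1 together, had 275 to 311 in the controls and 142 to 311 in KO (-0.37, adjusted p = 0.271).

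**Figure D3:**
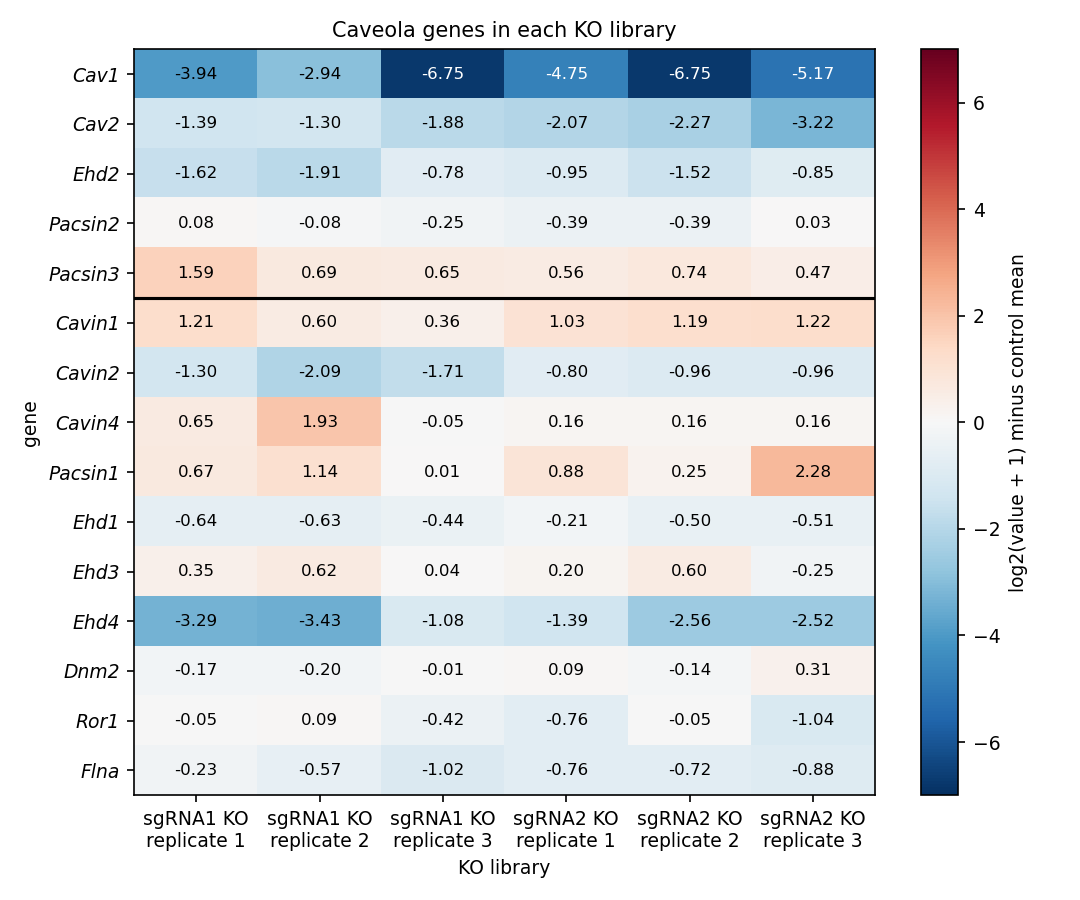
Heat map of log2(normalised count + 1) minus the control mean of that quantity, with genes as rows (the 5 chosen genes above the line, 10 other caveola genes below) and the 6 KO libraries as columns, blue for lower and red for higher. Cav1, Cav2, Ehd2, Cavin2, Ehd1, Ehd4 and Flna are below 0 in all 6 libraries, and Pacsin3, Cavin1 and Pacsin1 above 0, Pacsin1 by only 0.01 in sgRNA1 KO replicate 3.

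Cav1 and Cav2 lie on the same strand with 17219 bases and 0 annotated genes between them, next to Met, so the neighbourhood was also read. Of 9 listed neighbours, 6 were tested, and 2 rose, 2 fell and 2 did not pass, with 2 and 2 also called without the KO libraries nearest the controls. The share called was 66.7% of the 6, against 39.3% of all genes, or 48.3% without those libraries. Met, the hepatocyte growth factor receptor, starts 157.5 kb downstream of the Cav1 start. It had 276, 378 and 411 normalised counts in the controls, 20, 18 and 14 with sgRNA1 and 15, 16 and 19 with sgRNA2. Met fell 20.9-fold, with no overlap and little spread among KO libraries (log2 fold change -4.30, SE 0.21, adjusted p = 2.55e-05). Capza2, a subunit of actin capping protein at 329.9 kb, fell from 12487 to 13887 in the controls to 8524 to 10853 in KO. Its log2 fold change of -0.35 (adjusted p = 0.0238) was lost without control replicate 1 (0.0762), 2 (0.112) or 3 (0.0617) and with quantile normalisation (0.0583).

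Farther along the chromosome the direction was the opposite. Cftr, a chloride channel 864.4 kb away, had 9, 9 and 17 normalised counts in the controls and 203, 70 and 50 with sgRNA1 and 20, 209 and 59 with sgRNA2. Its log2 fold change was 2.65 (SE 0.68, adjusted p = 0.0141), lost without control replicate 1 (0.0543) or 2 (0.0637). Cttnbp2, a cortactin-binding protein 1209 kb away, had 1208 to 1608 in the controls and 1841 to 4724 in KO. It rose by 1.25 on the log2 scale (SE 0.32, adjusted p = 0.0139), lost without control replicate 2 (0.0647) or 3 (0.0581). Tes, on the Cav2 side, had 44 to 61 in the controls and 23 to 109 in KO (-0.31, adjusted p = 0.635), and St7, beyond Capza2, had 1020 to 1106 and 661 to 1431 (-0.26, adjusted p = 0.351). Tes and St7 did not pass. Cav2, Cav1 and Met, the lowest of these genes in log2 fold change, follow each other among the genes read, between Tes and Capza2. Whether their values are linked was not tested. Cftr, Cttnbp2 and Tes each overlap an antisense gene that has a row. St7 overlaps an antisense gene and genes on its own strand, all without a row.

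**Figure D4:**
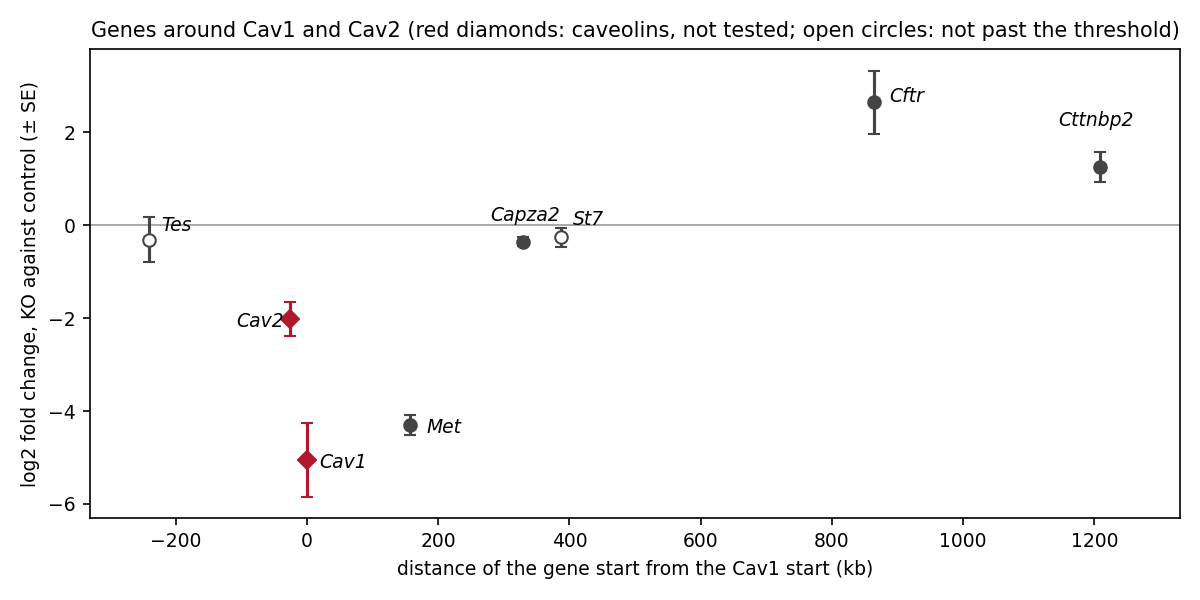
Log2 fold change of KO against control with its SE (vertical axis) by distance in kb from the Cav1 start (horizontal axis), for Cav1 and Cav2 (red diamonds, not tested) and 6 neighbours (circles, filled where adjusted p is under 0.05). Cav1 at -5.05, Met at -4.30 and Cav2 at -2.02 are lowest, and Cftr and Cttnbp2 on the right are above 0.

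Other membrane-domain genes were read from lists, given by counts beside the 39.3% of all genes called. Of 7 flotillin and raft scaffold genes, 1 rose and 3 fell (57.1% called, median -0.17), as also without the KO libraries nearest the controls. Flot2, which with Flot1 builds caveolin-free membrane domains, fell from 154 ± 5.20 (SD, n = 3) to 6.83 ± 5.71 (SD, n = 6), a log2 fold change of -4.55 (SE 0.48, adjusted p = 4.86e-04). Flot2 had 157, 148 and 157 normalised counts in the controls and 2 to 18 in KO. Stom, a stomatin, rose by 1.23 (adjusted p = 0.00240), and Erlin1 and Stoml2 changed by -1.20 (0.00276) and -0.64 (0.0479). Leaving out 1 library ended the call of Stoml2 (any control, sgRNA1 KO replicate 1 or 2, or sgRNA2 KO replicate 2; adjusted p up to 0.142), as did no filter and quantile normalisation.

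Of 20 clathrin endocytosis genes, 3 rose and 3 fell (median 0.12), and without the KO libraries nearest the controls 5 rose and 3 fell. The dynamins Dnm1 and Dnm3, best known from neurons, rose by 1.76 (adjusted p = 0.00518) and 1.0 (0.0316), and the adaptor Eps15 by 0.93 (0.0225). The light chain Cltb changed by -0.59 (0.00597), the assembly protein Picalm by -0.32 (0.0141) and the AP2 subunit Ap2a2 by -0.29 (0.0214). The share called in this list was 30%. Without 1 of the control libraries, Dnm3 and Eps15 lost their calls (any control; adjusted p up to 0.105 and 0.0846), as did Picalm and Ap2a2 (control replicate 2 or 3; up to 0.0794 and 0.105). Dnm3 also lost it without sgRNA1 KO replicate 1 or 2 or sgRNA2 KO replicate 2, and Ap2a2 with quantile normalisation.

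Of 17 BAR domain genes, relatives of the pacsins in fold, 5 rose and 6 fell (64.7% called, median -0.32), and without the KO libraries nearest the controls 6 rose and 7 fell. Srgap3 rose by 1.02 (adjusted p = 0.0135), Sh3gl2 by 0.96 (0.00743) and Sh3gl3 by 0.76 (0.0341), where the last of these are endophilins. Arhgap10 changed by -0.96 (0.00347), Bin1, which makes membrane tubules, by -0.87 (0.00250), and Trip10 by -0.62 (0.0416). Pacsin3 was therefore not alone among BAR domain genes in being higher in KO. Srgap3 lost its call without control replicate 2 or 3 (up to 0.0615). Sh3gl3 and Trip10 lost theirs without any 1 control, without several single KO libraries and with quantile normalisation (up to 0.136 and 0.132).

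Of 21 targets of the mechanosensitive coactivators Yap and Taz, 4 rose and 8 fell (57.1% called, median -0.42), the same counts as without the KO libraries nearest the controls. Dock5 changed by -2.33 (adjusted p = 5.21e-04), Igfbp3 by -2.18 (0.00292) and Nt5e by -2.06 (0.0120), while Tgfb2 rose by 1.17 (0.00160), Amotl2 by 1.09 (0.0450) and Rbms3 by 0.66 (0.0138). Nt5e lost its call without control replicate 2 (0.0508), Rbms3 without control replicate 1 or 2 (up to 0.0653) and Amotl2 without any 1 control and most single KO libraries (up to 0.137). Of 16 caveolar cargo and signaling partners, 5 rose and 2 fell (43.8% called, median 0.08), but 3 rose and 4 fell without the KO libraries nearest the controls. The Src-family kinase Lyn changed by -1.59 (0.00656) and the insulin receptor Insr by -0.33 (0.0274). Ptch1, the Hedgehog receptor, rose by 0.99 (0.00625). Aqp1 and Nos3, the endothelial nitric oxide synthase held by caveolin-1, rose by 1.72 (0.0217) and 1.05 (0.0380) from means of only 6 ± 4 and 10.3 ± 4.73 (SD, n = 3). Insr lost its call without control replicate 2 or 3, without sgRNA2 KO replicate 2 and with quantile normalisation (up to 0.126). Aqp1 lost it without control replicate 1 or 2 (up to 0.111) and without both KO libraries nearest the controls (0.0566). Nos3 lost its call in 10 of 17 alternatives, with each control among them (up to 0.181).

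**Figure D5:**
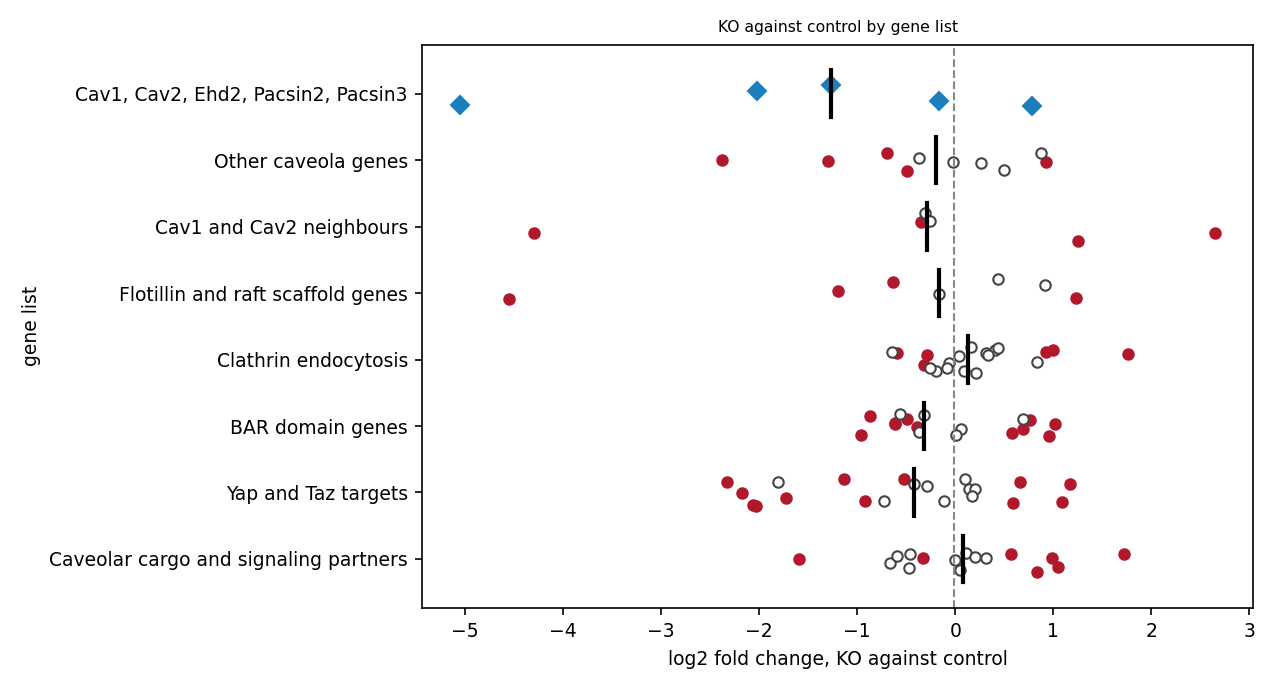
Log2 fold change of KO against control (horizontal axis) for each gene of the lists (rows): diamonds are the 5 chosen genes, not tested, filled circles have adjusted p under 0.05, bars are list medians and the dashed line is the median of all genes at -0.01. Each list has called genes on both sides of 0.

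Genes most like each member were taken as those with the smallest root mean square difference of log2 ratios to control over the 6 KO libraries, among 11270 genes. Cav2 was closest to Lrrc8b (0.27), Cela1 (0.30) and Iqgap2 (0.31). Ehd2 was closest to Xrcc6 (0.15), Noc4l (0.16) and Nop16 (0.16), Pacsin2 to Zfp346 (0.08), Ipo13 (0.09) and Kbtbd2 (0.09), and Pacsin3 to Sdr39u1 (0.12), Atp6v1g2 (0.14) and Zfp963 (0.15). Cav1 had no close match: its nearest were Ifi203 and Ptprn (both 1.07) and Clcf1 (1.22). Its KO counts of 0 to 13 make its log2 ratios (-6.75 to -2.94) depend on counting error and on the 1 count added. Its distances are therefore not comparable with those of the other members. The points share the same 6 libraries and the same controls. Members were left out of the candidates, so likeness between members was not read here.

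Markers of other cell types, among them cells rich in caveolae, were read in the same libraries. Their counts stand beside the 39.3% of all genes called, 20.2% lower and 19.1% higher. Of 10 endothelial markers, 8 had a row and 6 were tested, of which 2 fell, 0 rose and 4 did not pass: Flt1 (445 to 456 in controls, 14 to 66 in KO, log2 fold change -3.62, limma adjusted p = 8.78e-04) and Kdr (96 to 120, 16 to 72, adjusted p = 0.0421) fell, with the call of Kdr lost without any 1 control, sgRNA1 KO replicate 1 or sgRNA2 KO replicate 2 (up to 0.131). The other endothelial markers tested went both ways and did not pass: Tek (log2 fold change 0.58), Pecam1 (0.37), Plvap (-0.33) and Vwf (-0.01). The endothelial list summed to 834 to 904 in the controls and 254 to 529 in KO, with Flt1 the largest part in the controls. Pecam1 was at 5 to 13 in the controls, Tie1 at 0 to 1, and Cdh5 and Cldn5 had no row. Of 10 pericyte, fibroblast and smooth muscle markers, 8 had a row and 6 were tested, 2 rose (Myh11, Cspg4) and 2 fell (Rgs5, 54 to 75 against 1 to 5, and Acta2, 2117 to 2290 against 29 to 363). That list summed to 3082 to 3297 in the controls, most of it Acta2, and 1895 to 3060 in KO, with Pdgfrb at 1 to 4 in the controls. Tagln (-0.75) and Col1a1 (-0.69) did not pass. Of 8 astrocyte markers, 3 rose and 0 fell, with sums of 70983 to 76141 in the controls and 89489 to 220997 in KO. Gfap (-0.59), Aqp4 (2.27), Slc1a3 (-0.08), Aldh1l1 (0.14) and Gja1 (0.37) did not pass. Of 5 oligodendrocyte markers tested, Cnp rose (4074 to 5341 against 9155 to 20149) and made up most of the sums (4364 to 5843 against 9716 to 27233), and Cldn11 fell (107 to 184 against 17 to 44). Microglia and macrophage sums were 89 to 117 and 77 to 96. Of 2 of these markers tested, Cd68 fell (59 to 82 against 32 to 47, limma adjusted p = 0.0233) and 0 rose. The call of Cd68 was lost without any 1 control (up to 0.127). The part of these markers in the caveola values was not tested, and in bulk RNA fewer cells of a type and less RNA per cell cannot be told apart.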

How the data were processed

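RNA of mouse brain tumor stem cells was sequenced in 9 libraries, 3 per group by the labels. The submitters' processing notes name build mm10 and the tools DESeq2, featureCounts and STAR 2.4.1d. The annotation release and strand use are not given in the sources used here. The deposited table holds 1 score for each gene in each library: read counts that the authors multiplied by a library's scaling factor and rounded (inferred from the gaps between low values). Gene identifiers were matched to GENCODE M21 (99.65%) for positions and exon length. Limma 3.58.1 in R 4.3.3 was run on log2(score + 1), with a mean trend, for the 15827 genes whose mean was 10 or more. Small fold changes of low genes are understated on that scale. KO against control had 2 groups, and the guide comparisons 1 fit of 3. P-values were two-sided and adjusted by Benjamini-Hochberg over all genes tested, with a threshold of 0.05. The code was tested on simulated data. Motifs and exact permutation tests were computed in Python 3.11.15.

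The members and all lists were chosen with earlier results of these data known. Named genes were the members, Gpd1, the detected caveola genes and neighbours, up to 3 per direction with the largest log2 fold change from each other list, and the 3 genes most like each member. Alternatives changed the added count, the filter, the scaling, the weights, the replicate block and the libraries used.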

Additional observations from a re-analysis of the deposited data

Results flagged for a closer look

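Of 23 genes examined, 5 had 1 of the 6 KO libraries far from the rest, meaning a gap of more than 0.625 of the range of the 6 (Dixon's 95% critical value). By chance about 5% of groups would be picked out this way. Pacsin3 had 2487 normalised counts in sgRNA1 KO replicate 1, where the next highest was 1378. Cavin4 had 50 in sgRNA1 KO replicate 2, with the next at 20. In sgRNA2 KO replicate 3, Pacsin1 had 413 against 187 in the next library, St7 had 1431 against 943, and Capza2 was lowest at 8524 against 10451. So 3 of the 5 came from the same library, and none came from Cav1, Cav2, Ehd2 or Pacsin2.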

How the results depend on the processing

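Genes called in KO against control numbered 6227, and 2777 to 7597 when 1 library was left out. Leaving out control replicates 1, 2 or 3 gave 3904, 2777 and 3006. For sgRNA1 KO against control the count was 5699 and ranged from 1267 to 7900, lowest without control replicate 2, and it was 2811 and 1541 without control replicates 1 and 3 and 1952 and 2348 without sgRNA1 KO replicates 1 and 2. For sgRNA2 KO it was 3505 and ranged from 643 to 5480, with 1320, 643 and 688 without control replicates 1, 2 and 3, 1431 without sgRNA2 KO replicate 2 and 5480 without sgRNA1 KO replicate 3. Between guides it was 0 and ranged from 0 to 182, the highest without sgRNA1 KO replicate 3. Without both KO libraries nearest the controls it was 6243 for sgRNA2 KO and 30 between guides. No other setting moved a count by over 1.5 times, and the causes were not tested. For Cav1, Cav2 and Ehd2, chosen on this contrast, the log2 fold changes in KO against control ran from -5.48 to -3.79, -2.17 to -1.78 and -1.48 to -1.14 over 17 (Cav1, which the stricter filter drops), 18 and 18 alternatives. Cav1 in sgRNA2 KO was -4.09 with 5 added. Dnm2 (-0.02) ranged from -0.08 to 0.02 with 1 library left out and turned to 0.09 with quantile normalisation, 0.01 without sgRNA1 KO replicate 1, 0.02 without sgRNA1 KO replicate 2 and 0.01 without sgRNA2 KO replicate 2, and Tes to 0.13 without both KO libraries nearest the controls. With the replicate block, 5786 genes were called in KO against control, 5241 with sgRNA1, 2632 with sgRNA2 and 0 between guides, and of the named genes Trip10 (adjusted p = 0.0542) and Kdr (0.0573) were not called in KO against control. Deviations of libraries with the same number correlated from -0.35 to 0.33, so the numbers do not pair the samples. Depth limits Cav1, with 4 of its 6 KO values at 3 counts or fewer, and Cavin3, with all 6.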

Other observations

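Within single libraries the balance of the members also shifted, a view chosen after the values were seen. The ratio of Cav2 to Ehd2 normalised counts was 0.957 to 0.999 in the 3 controls. It was 1.15, 1.5 and 0.457 in sgRNA1 KO replicates 1 to 3 and 0.452, 0.585 and 0.190 in sgRNA2 KO replicates 1 to 3, so it lay above the controls in 2 KO libraries and below them in 4. The ratio of Pacsin2 to Pacsin3 was 3.52, 5.11 and 4.47 in the controls and 1.51 to 3.19 in KO, without overlap.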
